A study of Mus musculus with 2 samples.

Results

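Purine receptors and ectonucleotidases were examined in mouse bone marrow-derived dendritic cells as a set of 10 genes. The set was chosen by name, with earlier results of these data known. It holds the adenosine receptors Adora2a, Adora2b and Adora3 and the ATP-gated channels P2rx4 and P2rx7. Also in it are the nucleotide receptors P2ry6, P2ry13 and P2ry14 and the surface enzymes Entpd1 and Nt5e. The array's platform annotation paired 8 of the 10 with a probe set of exactly 1 gene symbol, out of 22180 genes so paired, and each of the 8 had 1 such probe set. Adora2a and Adora2b were not analysed here. One culture, called GMDC_TPT in the labels, was grown with conditioned medium of topotecan-treated E0771 cells. E0771 is a mammary tumour line of the mouse, and topotecan blocks topoisomerase I. The other culture, GMDC_ctrl, was the control. Both cultures are labelled as bone marrow-derived dendritic cells. The labels used here give no genotype, strain, age, medium dose or culture time, and do not say which medium the control cells had. The effect of treating the tumour cells with topotecan and the effect of tumour-conditioned medium therefore cannot be told apart. There was 1 array per culture condition, so no test could be run, the values carry no replicate error, and each difference compares 2 arrays.

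ATP and other nucleotides leave stressed or dying cells and act on neighbouring cells through P2 receptors, which are either ion channels opened by ATP (P2X) or G-protein-coupled receptors for ATP, ADP, UTP, UDP or UDP-sugars (P2Y). The ectonucleotidase CD39, encoded by Entpd1, degrades extracellular ATP and ADP to AMP, and CD73, encoded by Nt5e, converts AMP to adenosine, which acts on the adenosine receptors. In myeloid cells extracellular ATP is best known for opening P2X7 and driving inflammasome activation, and adenosine for restraining inflammatory responses.

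Levels are deposited values taken as log2 intensity. A difference is the level with conditioned medium minus the level in the control, and a fold is 2 raised to the size of that difference. The median over both arrays together, 4.10, served as a filter: a gene was kept when the higher of its 2 values reached it. Of the 8 measured genes 7 were kept, and all 7 lay at or above the filter level on both arrays, so none passed through 1 array alone. The differences of probe sets for the same gene had a pooled SD of 0.46 on the log2 scale (787 degrees of freedom, 652 genes). That SD is the only spread between measures of the same gene that these data allow, and it holds no variation between cultures. The 8 measured genes, with 1 probe set each, did not enter it. Where 1 value of a gene of the lists given further on lay under the filter level, the difference was also taken with that value raised to 4.10, and is given beside the genes named singly as the difference against the filter level.

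Among the kept genes, 2 passed 2-fold on the higher side with conditioned medium, P2ry13 and P2ry14, against a background of 8.63% of all 13712 kept genes. One gene, P2ry6, was at least 2-fold lower, against a background of 6.84%. The other 4 lay between. The median difference of the 7 was 0.57, compared with -0.07 over all kept genes. With 7 genes these counts describe single genes and not the set as a whole. The same shares, 8.63% higher and 6.84% lower, are the background for the counts of gene lists further on.

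**Figure D1:**
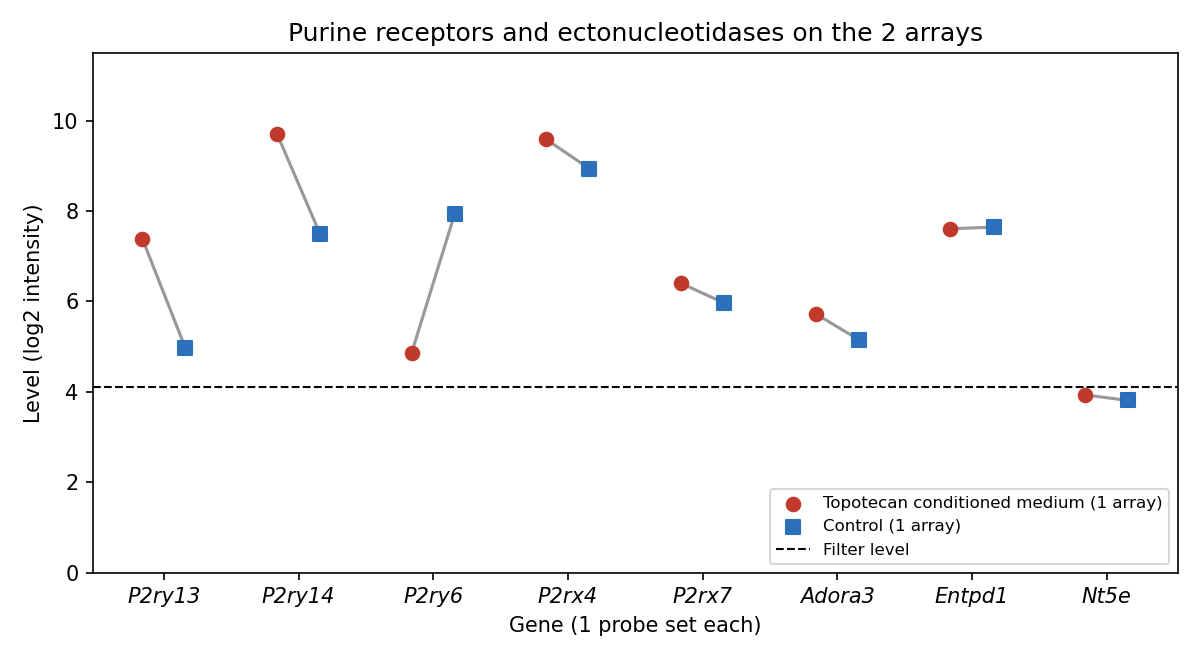
Level (log2 intensity, y axis) of the 8 measured genes (x axis) on the array with topotecan conditioned medium (circles, left of each pair) and on the control array (squares, right); the dashed line is the filter level of 4.10. P2ry13 and P2ry14 lie higher with conditioned medium, P2ry6 lies lower, Entpd1 is nearly level, and both values of Nt5e lie under the line.

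Within the chosen set, the G-protein-coupled nucleotide receptors held all 3 of the differences past 2-fold. P2ry13 encodes a receptor for ADP. Its level (probe set 17405478) was 7.39 with conditioned medium and 4.97 in the control, a difference of 2.42 or 5.36-fold. Of all kept genes, 246 (1.79%) had a higher difference. P2ry14 encodes a receptor for UDP-glucose and other UDP-sugars. Its level (probe set 17405463) was 9.71 with conditioned medium and 7.49 in the control, a difference of 2.22 or 4.66-fold, and 297 kept genes (2.17%) had a higher one. The differences of P2ry13 and P2ry14 were 0.20 apart on the log2 scale, less than the SD between probe sets of a gene.

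P2ry6 encodes a receptor for UDP that is known in phagocytes. Its level (probe set 17493869) was 4.87 with conditioned medium and 7.95 in the control, a difference of -3.08, or 8.45-fold lower. Only 34 kept genes (0.248%) had a lower difference. The sizes of these 3 differences were 5.28 times the SD between probe sets for P2ry13, 4.84 times for P2ry14 and 6.72 times for P2ry6. The nucleotide receptor genes thus differed in opposite directions between the same 2 arrays.

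Markers of macrophages, in which P2ry6 is known, differed between these arrays too, and in cultures measured in bulk fewer cells of a type and less RNA per cell cannot be told apart. All 10 measured macrophage markers were kept and 3 of them were at least 2-fold lower: Csf1r, the receptor gene for colony-stimulating factor 1 (difference -2.93), the mannose receptor gene Mrc1 (-2.74) and the adhesion receptor gene Adgre1 (-2.29). The other 7 lay between, from the complement gene C1qa (-0.19) to C1qb (0.26) and the Fc receptor gene Fcgr1 (0.98). The summed linear intensity of the list was 18132 with conditioned medium and 15764 in the control. That order rests on Fcgr1: without it, a sum added after the values were seen, the other 9 markers gave 12584 with conditioned medium and 12959 in the control. The part of macrophage content in the difference of P2ry6 was not tested.

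**Figure D2:**
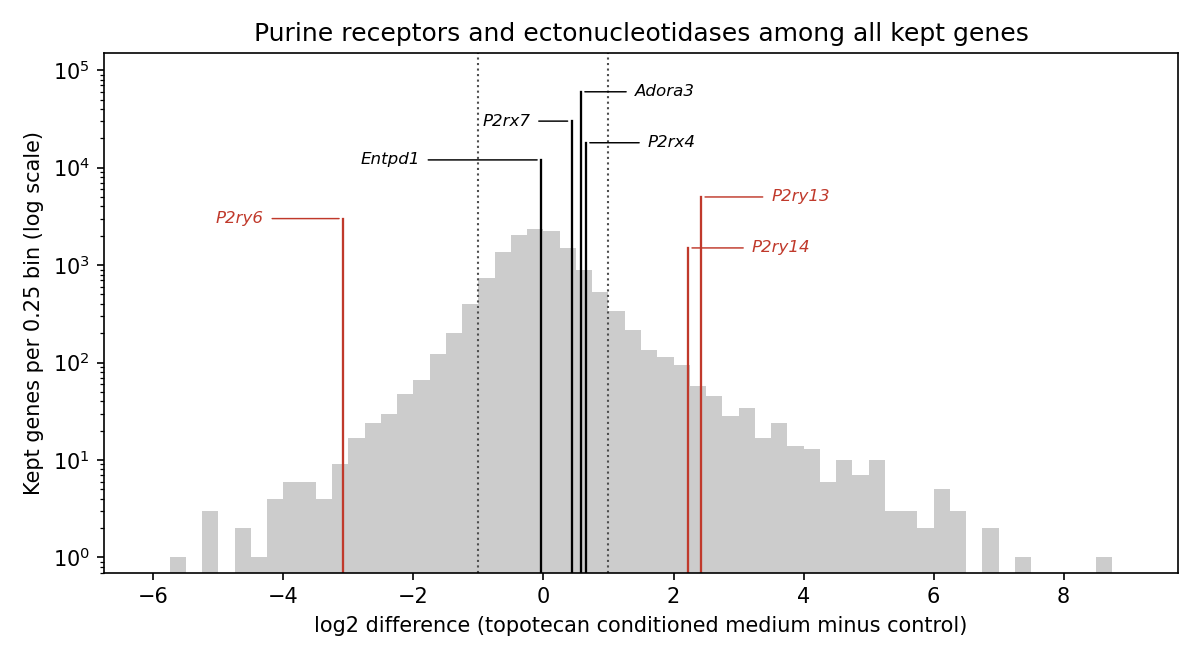
Number of kept genes per 0.25 bin (y axis, log scale) by log2 difference, topotecan conditioned medium minus control (x axis). Vertical lines mark the 7 kept purine receptors and ectonucleotidases and dotted lines mark 2-fold; P2ry6 at -3.08 lies in the lower tail, P2ry14 at 2.22 and P2ry13 at 2.42 lie in the upper tail, and the other 4 lie among the bulk of genes.

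The ATP-gated channels and the measured adenosine receptor differed less. P2rx4, the gene of a channel found on the cell surface and on lysosomes, had a level of 9.59 with conditioned medium and 8.94 in the control (difference 0.65, 1.57-fold). P2rx7, the gene of the ATP-gated channel upstream of the NLRP3 inflammasome, had 6.40 with conditioned medium and 5.97 in the control (difference 0.44, 1.35-fold). Adora3, the gene of the A3 adenosine receptor, had 5.73 with conditioned medium and 5.15 in the control (difference 0.57, 1.49-fold). All 3 were on the higher side, by 1.42, 0.95 and 1.25 times the SD between probe sets in this order, and 30.3%, 47.0% and 35.5% of kept genes had a difference of larger size.

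The ectonucleotidases had nearly equal values on both arrays. Entpd1 had a level of 7.61 with conditioned medium and 7.64 in the control, a difference of -0.03. Nt5e had 3.93 with conditioned medium and 3.81 in the control, both under the filter level, where signal is not told from background. Its difference of 0.12 is therefore not read as a level of Nt5e.

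P2ry13 and P2ry14 lie close together. In RefSeq's order of protein-coding genes (assembly GRCm38.p6) they lie on chromosome 3 in a run of receptor genes that includes Gpr171, P2ry14, P2ry13 and P2ry12, near Med12l. The neighbouring genes were added after the values of the receptors had been seen. Gpr171 encodes another G-protein-coupled receptor. Its level was 9.70 with conditioned medium and 6.94 in the control, a difference of 2.76 or 6.79-fold, higher than 2.42 for P2ry13. A second probe set of Gpr171 had 7.69 with conditioned medium and 5.15 in the control, a difference of 2.53. The run did not differ evenly. P2ry12, the gene of the ADP receptor known from platelets and microglia, had 5.99 with conditioned medium and 5.60 in the control (difference 0.39), which is 2.03 below the difference of P2ry13 and 1.83 below that of P2ry14. Med12l, a Mediator subunit gene, had a difference of 0.63.

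P2ry6 lies beside P2ry2 on chromosome 7. P2ry2, the gene of a receptor for ATP and UTP, had a level of 4.04 with conditioned medium and 3.24 in the control, both under the filter level. The 6 nearest other protein-coding genes, 3 on each side of the pair, included 5 kept genes, with differences from -0.43 to 0.76, so none of these reached 2-fold while P2ry6 was 8.45-fold lower. P2rx7 and P2rx4 are adjacent on chromosome 5, and their differences were 0.21 apart, less than the SD between probe sets. Of their 6 neighbours, Rnf34 was at least 2-fold higher, Anapc5 at least 2-fold lower and the other 4 lay between.

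**Figure D3:**
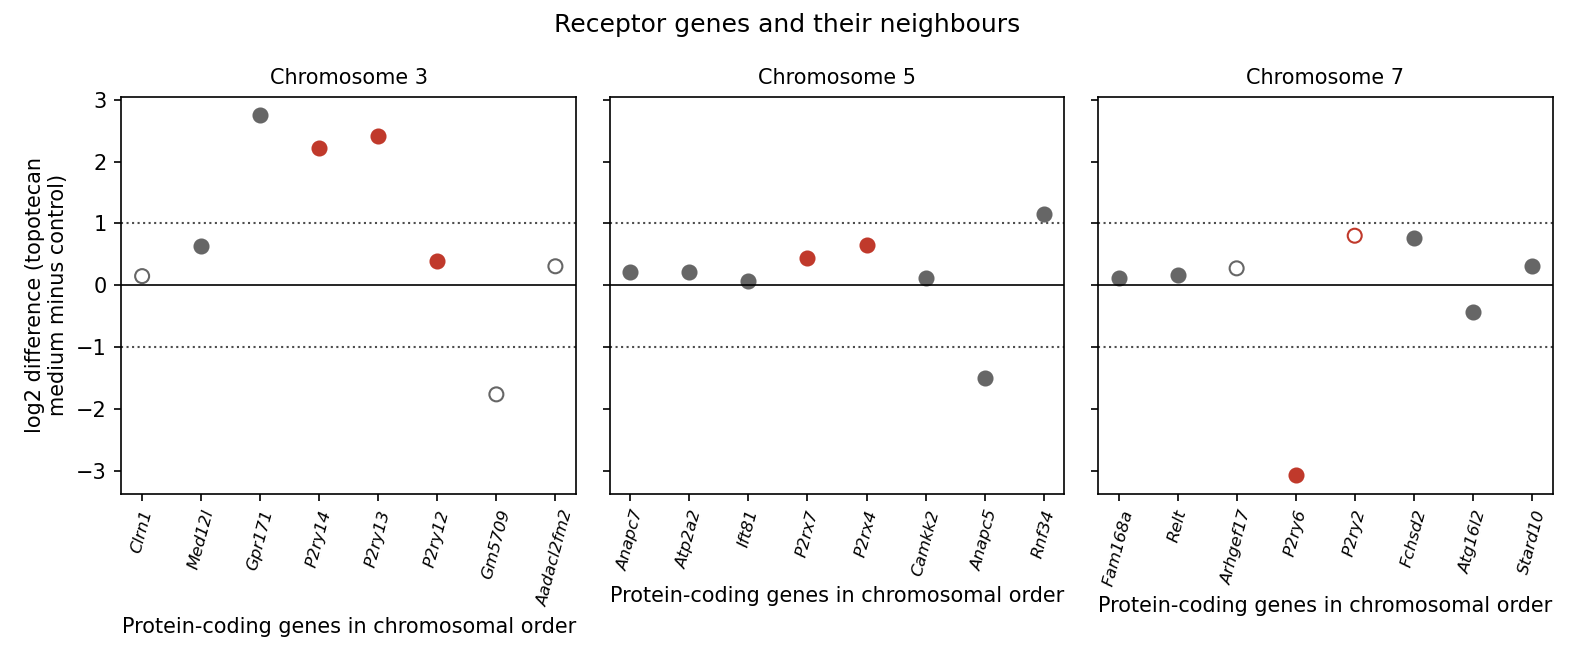
Log2 difference, topotecan conditioned medium minus control (y axis), of receptor genes (red) and of those among the nearest protein-coding genes that have a value (grey), in RefSeq order (x axis; not to scale in distance). Open circles are genes under the filter level on both arrays; Gpr171, P2ry14 and P2ry13 lie above the upper 2-fold line on chromosome 3, and P2ry6 lies alone below the lower line on chromosome 7.

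Promoters are shown for P2ry13 and P2ry14 because these genes lie close together, though not side by side, and had nearly the same difference. The sequences are from RefSeq (GRCm38.p6), the 250 bases before an annotated start, on the minus strand. For P2ry13 it is chr3:59210883-59211132. P2ry14 has 4 annotated starts, and those with a motif match are printed, at chr3:59153493-59153742 and chr3:59131329-59131578. Capitals mark matches to the AP-1 motif TGANTCA.
P2ry13: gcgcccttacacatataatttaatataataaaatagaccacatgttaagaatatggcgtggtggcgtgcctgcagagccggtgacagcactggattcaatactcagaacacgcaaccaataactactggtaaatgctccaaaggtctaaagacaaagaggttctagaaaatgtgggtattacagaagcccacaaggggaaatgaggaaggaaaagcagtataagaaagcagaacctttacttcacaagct
P2ry14, first start: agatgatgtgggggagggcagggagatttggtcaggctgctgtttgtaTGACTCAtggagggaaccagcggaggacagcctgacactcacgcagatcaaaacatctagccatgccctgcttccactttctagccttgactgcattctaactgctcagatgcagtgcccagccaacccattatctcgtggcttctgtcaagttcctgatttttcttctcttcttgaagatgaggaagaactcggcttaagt
P2ry14, second start: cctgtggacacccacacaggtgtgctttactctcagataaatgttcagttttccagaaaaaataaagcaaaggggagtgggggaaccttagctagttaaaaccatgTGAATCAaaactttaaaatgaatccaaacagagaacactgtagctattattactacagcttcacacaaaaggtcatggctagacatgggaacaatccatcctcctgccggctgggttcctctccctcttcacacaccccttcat

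Windows of 300 bases, 250 before and 50 after a start, were searched on both strands for GAAANNGAA (interferon-stimulated response element core), TTCNNNGAA (STAT site), GGGANTTTC (NF-kB), TGANTCA (AP-1), TGACGTCA (cyclic AMP response element) and ACGTG (core of the hypoxia response element). RefSeq's promoter table gave 13 windows for 8 of the 10 genes, without P2ry6 and Adora2a. P2ry14 had an AP-1 match 202 bases before its first start and another 144 bases before its second. Adora3 had one 98 bases before its start, and P2rx7 one 249 bases before its first start. The AP-1 letters were present in 7.81% of all 32851 windows. The single window of P2ry13 held none of the 6 motifs, and no window of the 8 genes held any of the other 5, so no AP-1 match overlapped another motif. Those 5 were present in 8.56% (interferon-stimulated response element), 8.30% (STAT), 1.11% (NF-kB), 1.79% (cyclic AMP response element) and 19.6% (hypoxia response element) of all windows. A match describes letters and not a bound site, and a missing match says only that these letters are not in the window.

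Of the remaining adenosine and nucleotide receptors, 9 of 10 were measured and 4 were kept, and 0 of these reached 2-fold in either direction. Besides P2ry12, the kept genes were P2ry1, an ADP receptor gene (5.39 with conditioned medium and 5.83 in the control, difference -0.43), P2rx5 (3.94 with conditioned medium and 4.56 in the control, difference -0.62, or -0.46 against the filter level) and P2rx1 (3.98 with conditioned medium and 4.17 in the control, difference -0.19, or -0.07 against the filter level). P2rx2, P2rx3, P2rx6 and P2ry4 lay under the filter level on both arrays, as P2ry2 did, and their differences ran from -0.25 to 0.12. Adora1 was not analysed here.

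Several genes listed with the enzymes that convert nucleotides and adenosine had larger differences than Entpd1. Of 18 listed, 13 were measured and 12 kept, with a median difference of 0.34. At least 2-fold higher were 4, against 8.63% of all kept genes. At least 2-fold lower was 1, against 6.84%, and 7 lay between. Dpp4, counted among the 4, encodes a surface dipeptidyl peptidase, which cleaves peptides and not nucleotides. Its human form binds adenosine deaminase. The level of Dpp4 was 6.66 with conditioned medium and 4.41 in the control (4.75-fold). Bst1, an ADP-ribosyl cyclase gene, had 10.11 with conditioned medium and 8.11 in the control. The other genes past 2-fold on the higher side were Enpp3, a gene of an ectonucleotide pyrophosphatase (2.93-fold), and Pnp, the gene of purine nucleoside phosphorylase (2.83-fold). Alpl, the gene of a surface alkaline phosphatase able to dephosphorylate nucleotides, had 5.81 with conditioned medium and 8.13 in the control, a difference of -2.32. Its second probe set had 4.24 with conditioned medium and 5.21 in the control, a difference of -0.97. Xdh, the xanthine dehydrogenase gene, had a difference of -0.59, and Ada and Adk, whose enzymes clear adenosine, had 0.26 and -0.49. The intracellular and surface relatives Entpd3, Entpd5, Entpd6 and Entpd7 lay between -0.47 and 0.58.

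Genes of nucleotide release and nucleoside transport had a median difference of -0.08, with 2 of 10 kept genes at least 2-fold higher and 0 lower. Slc28a2, a concentrative nucleoside transporter gene, had 8.26 with conditioned medium and 6.35 in the control (3.78-fold), and Slc29a3, the gene of a lysosomal nucleoside transporter, was 2.03-fold higher. Its second probe set had a difference of 0.50. A further probe set, annotated to both Slc29a3 and Gm15466 and not counted, had 7.17 with conditioned medium and 7.30 in the control, a difference of -0.12. The lowest were Panx1, the gene of an ATP-release channel (difference -0.77), and Slc17a9, that of the vesicular nucleotide transporter (-0.89, or -0.53 against the filter level).

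All 10 listed inflammasome and interleukin-1 genes were kept. Of these, 7 were higher by at least 2-fold, against 8.63% of all kept genes, and 0 were lower by as much, against 6.84%. Their median difference was 1.29. The part of ATP sensing in these differences was not tested. Il1a had 7.92 with conditioned medium and 4.15 in the control (13.6-fold), and Il1b was 8.88-fold higher. Nlrp3, the sensor gene, had 4.24 with conditioned medium and 3.58 in the control, a difference of 0.66 that was 0.14 against the filter level, and Nek7, whose product binds NLRP3, had a difference of -0.15. Of 15 kept genes of cyclic AMP signalling, the pathway of several adenosine receptors, 1 passed 2-fold on the higher side and 1 on the lower side, and the median difference was -0.26. Crem, a cyclic AMP-responsive transcription factor gene, was 3.55-fold higher, Gnai3, the gene of an inhibitory G-protein subunit, was 1.96-fold higher, and the phosphodiesterase gene Pde2a and the adenylyl cyclase gene Adcy7 had differences of -1.12 and -0.81. With conditioned medium Pde2a lay under the filter level, and measured against that level its difference was -0.69, so that 0 of the 15 were then at least 2-fold lower.

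**Figure D4:**
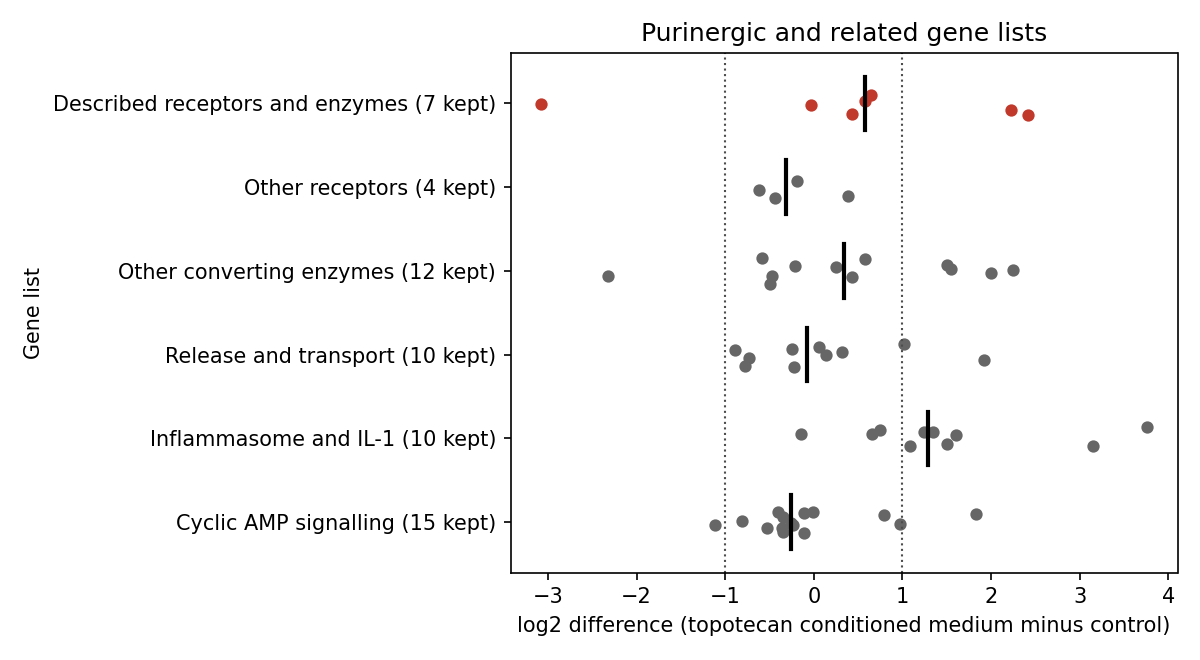
Log2 difference, topotecan conditioned medium minus control (x axis), of each kept gene (points, spread vertically for legibility) in the purine receptors and ectonucleotidases (red, top) and 5 related gene lists (grey); vertical bars are medians and dotted lines mark 2-fold. The medians are 0.57, -0.31, 0.34, -0.08, 1.29 and -0.26 from top to bottom.

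The labelled cell type was set against its markers. Of 11 measured dendritic cell markers 10 were kept, 3 at least 2-fold higher, 4 at least 2-fold lower and 3 between. One of the 4 was Flt3, a growth factor receptor gene, at 3.15 with conditioned medium and 4.38 in the control, and against the filter level its difference was -0.28, leaving 3 lower. The class II gene H2-Aa had 10.94 with conditioned medium and 9.06 in the control, and the transcription factor gene Irf4 had a difference of 1.83. Batf3, a transcription factor gene of conventional dendritic cells (-2.03), and the lectin gene Clec10a (-2.01) were lowest. Zbtb46, a defining gene of conventional dendritic cells, lay under the filter level on both arrays at 3.65 each. The summed intensity of the list was 5645 with conditioned medium and 3825 in the control. Among the counted markers, the class II genes H2-Aa and H2-Ab1 carried that order. Without them, again a sum added afterwards, the other 9 gave 1153 with conditioned medium and 2147 in the control. A probe set annotated to both Cd74, which is on the list, and Mir5107 was not counted. It had 11.71 with conditioned medium and 10.94 in the control, a difference of 0.77, and lay above every counted marker on both arrays. The order without H2-Aa and H2-Ab1 therefore holds only for the 9 counted markers.

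Markers of other cell types differed as well. Of 11 neutrophil markers 7 were at least 2-fold lower, among them the granule genes Camp (-5.54, or -4.47 against the filter level) and Ngp (-5.16), and 0 were as much higher, with Csf3r (0.89) and Cebpe (0.80) on top. Their summed intensity was 2748 with conditioned medium and 9863 in the control. Of 8 mast cell markers 4 were kept. Hdc, the histidine decarboxylase gene, was higher (2.93, or 1.96 against the filter level) and Cpa3 was lower (-2.81, or -2.42 against it), while Ms4a2 (-0.30) lay between. Fcer1a had a difference of -1.30 as deposited and -0.29 against the filter level, which is short of 2-fold. Mcpt4, Tpsb2, Kit and Cma1 lay under the filter level on both arrays, and the summed intensity was 138 with conditioned medium and 185 in the control. Of 7 measured lymphocyte markers 4 were kept and 0 passed 2-fold, from Cd3d (-0.06) and Cd3g (0.39) to Ms4a1 (0.54) and Cd3e (0.55). Their summed intensity was 154 with conditioned medium and 138 in the control. These values leave out a probe set annotated to both Klrb1a and Klrb1c, of which Klrb1c is on the list. It had 2.96 with conditioned medium and 6.68 in the control, a difference of -3.71. With conditioned medium it lay under the filter level, and no difference against that level was taken. The probe set of Klrb1c alone lay under the filter level on both arrays. Of 6 measured mammary epithelial markers 2 were kept, the E-cadherin gene Cdh1, which was 13.8-fold higher (difference 0.55 for its second probe set), and the keratin gene Krt8 (-0.19). Epcam, Krt14, Krt18 and Esrp1 lay under the filter level on both arrays, and the summed intensity was 1249 with conditioned medium and 157 in the control. Without Cdh1, a sum added afterwards too, the other 5 gave 66.5 with conditioned medium and 71.1 in the control. The part of these cell types in the differences of P2ry6, P2ry13 and P2ry14 was not tested.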

How the data were processed

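Total RNA of 2 cultures was extracted with Trizol and labelled as biotinylated cRNA, per the labels' protocols. The authors deposited 1 table of values for 41345 probe sets, taken here as log2 intensity from their range (0.02 to 13.50 with conditioned medium, -0.26 to 13.42 in the control). Affymetrix Expression Console was used, per the submitters' processing notes. No source used here states the log base, summarisation method, background correction or normalization. The platform annotation gave 1 symbol for 23521 probe sets, several for 1814 and none for 16010, and all 8 measured genes had their identifier and symbol in RefSeq. Genes with several probe sets were represented by the one with the highest mean of both arrays. With 1 array per condition, a fixed size of 2-fold replaced a test, and the number of arrays limits the precision. The rule named all 10 genes, the other adenosine and nucleotide receptors, and the 2 highest and 2 lowest kept genes of each related list. Enpp3, Pnp, Ada, Adk, the Entpd relatives, some cell markers and the neighbouring genes were named in addition. The 10 genes and the lists were chosen with earlier results of these data known. The counting was tested on simulated data. Alternatives were quantile normalization, loess subtraction (fraction 0.3, 3 iterations), centring, probe set means, raised low values, other filters and 1.5-fold and 3-fold. Tools were Python 3.11.15, numpy 2.4.6, pandas 2.3.3, statsmodels 0.14.6 and matplotlib 3.10.9.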

Additional observations from a re-analysis of the deposited data

How the results depend on the processing

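No paired analysis was possible because each culture condition had 1 array and the labels carry no replicate numbers. Under quantile normalization, loess subtraction, centring, probe set means, raised low values and the 3 other filters, the kept genes (7, or 8 with no filter) again held 2 that were at least 2-fold higher and 1 that was lower, and 3-fold gave the same counts. At 1.5-fold 3 were higher and 1 lower. Probe set means could not change the counts of these genes, as each had 1 probe set. Raised low values could not either, as all 7 kept genes lay at or above the filter level on both arrays. Of all 13712 kept genes, 2274 were higher and 2458 lower at 1.5-fold, and 568 higher and 290 lower at 3-fold. A lower or higher threshold must move the counts this way. At 1.5-fold the lower share of the 7 was thus under that of all kept genes, and the higher share was above it. With the filter at the 75th percentile 7400 genes stayed, of which 1004 passed 2-fold on the higher side and 752 on the lower side. The background shares of 8.63% and 6.84% therefore hold for the main filter at 2-fold only. The largest move of any of the 8 genes under the first 5 of these alternatives was 0.14, and differences ran from 2.40 to 2.48 for P2ry13 and from 2.17 to 2.35 for P2ry14, while P2ry6 moved by at most 0.074. Entpd1 ran from -0.07 to 0.08, so its sign is not settled. Each of the 8 genes had 1 probe set, so none had a second one to compare. Signal under the filter level limits Nt5e and P2ry2 on both arrays, and P2rx1, P2rx5, Slc17a9, Nlrp3, Pde2a, Flt3, Camp, Hdc, Cpa3 and Fcer1a on 1 of them. Raising such values to that level ended the 2-fold difference of Pde2a, Flt3 and Fcer1a. The log2 ratio of the summed intensities, conditioned medium over control, was near level for macrophage markers without Fcgr1 (-0.04). It was near level for mammary epithelial markers without Cdh1 too (-0.10). For dendritic cell markers it turned direction without H2-Aa and H2-Ab1 (-0.90), with the uncounted probe set of Cd74 left out.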
